A study of Mus musculus with 135 samples.

Results

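The 8 neutrophil granule genes S100a8, S100a9, Ngp, Camp, Ltf, Lcn2, Mpo and Elane were followed through the cortex and the hippocampus of Townes mice, a line in which human globin genes stand in place of the mouse ones. They were chosen by symbol, and each symbol named 1 row, so the members were 8 of the 55416 genes in each of the 2 count tables. All mice were 6-month-old males, homozygous either for the normal human beta-globin (AA) or for the sickle form (SS), so the AA controls carried the human transgenes too. Mice were left without stress or drug (AA, SS), went through repeated social defeat (AA + RSD, SS + RSD), had minocycline, a tetracycline antibiotic, in their drinking water during RSD and from the day before it (AA + RSD + minocycline, SS + RSD + minocycline), or were labelled as given minocycline without RSD (AA + minocycline, SS + minocycline). In the cortex the groups held 12 AA, 3 AA + RSD, 18 AA + RSD + minocycline, 1 AA + minocycline, 8 SS, 6 SS + RSD, 14 SS + RSD + minocycline and 4 SS + minocycline libraries. The hippocampus had 11 AA and 7 SS libraries and the same numbers otherwise.

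Neutrophils kill microbes with proteins that they store ready-made. In the bone marrow the genes switch on in sequence: Mpo (myeloperoxidase, which makes hypochlorous acid) and Elane (neutrophil elastase, a serine protease) in early precursors, then Ltf (lactoferrin, which binds iron), Camp (the cathelicidin antimicrobial peptide) and Ngp (a protein of the cathelicidin family), while S100a8 and S100a9, the subunits of the calcium-binding complex calprotectin, stay highly transcribed in mature circulating neutrophils. Lcn2 (lipocalin-2, which captures bacterial iron carriers) is a granule protein as well, but in brain it is also known from reactive astrocytes and endothelium. Transcription factors of the C/EBP family and PU.1 drive the myeloid programme, whereas GATA factors drive the erythroid one. Healthy brain tissue holds few neutrophils outside its vessels.

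S100a8 and S100a9 lie close together on chromosome 3 of GRCm39, S100a8 (ENSMUSG00000056054.10) at chr3:90567118-90578128 on the plus strand and S100a9 (ENSMUSG00000056071.13) at chr3:90599931-90603071 on the minus strand. Ngp (ENSMUSG00000032484.9, chr9:110248815-110252086), Camp (ENSMUSG00000038357.11, chr9:109676442-109678685) and Ltf (ENSMUSG00000032496.8, chr9:110848339-110871835) share chromosome 9. Lcn2 (ENSMUSG00000026822.15) is at chr2:32274645-32278264, Mpo (ENSMUSG00000009350.14) at chr11:87684407-87695239 and Elane (ENSMUSG00000020125.8) at chr10:79722081-79724051. Another gene model, Gm11505 on the opposite strand, overlaps 15.3% of the exonic bases of Mpo. All 8 genes had an entry in the RefSeq promoter table, whose build is GRCm38.p6. The upstream stretches of S100a8 and S100a9 are shown because these genes have the highest levels per kilobase among the members in cortex and move together across libraries. Each was found once in GRCm39 by exact match and is given 5' to 3' on the strand of its gene, without the bases that overlap an annotated exon. The S100a8 stretch, chr3:90576128-90576284 on the plus strand, is intronic in the longer annotated gene. The S100a9 stretch, chr3:90603072-90603278 on the minus strand, ends directly before the gene. Capitals mark a match to the PU.1 motif AGGAAGT, read on the opposite strand, in S100a8 and to the C/EBP motif TTGCNNAA in S100a9.
S100a8: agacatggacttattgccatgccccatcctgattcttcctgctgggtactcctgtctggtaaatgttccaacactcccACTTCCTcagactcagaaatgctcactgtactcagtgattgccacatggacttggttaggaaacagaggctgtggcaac
S100a9: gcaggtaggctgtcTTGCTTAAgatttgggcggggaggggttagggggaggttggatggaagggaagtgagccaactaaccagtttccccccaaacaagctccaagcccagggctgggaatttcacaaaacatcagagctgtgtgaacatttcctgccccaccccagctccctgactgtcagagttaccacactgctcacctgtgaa

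In the 250 bases before the start, searched on both strands, TTGCNNAA occurred in 4 of the 8 members (S100a9, Ngp, Ltf and Lcn2) and in 9.55% of 27025 promoters. AGGAAGT occurred in 3 of 8 (S100a8, Mpo and Elane) against 7.80% of all promoters. The GATA motif AGATAAG was in 0 of 8 against 2.78%. Camp had none of the 3 motifs. These letter matches are a description of the window and not a test of binding.

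Cortex libraries held 16295042 to 107713193 reads on genes and those of the hippocampus 12869149 to 68731008. On the scale of CPM, the reads of a gene scaled to a fixed total of reads on genes, 1 read was therefore worth 0.00928 to 0.0614 in cortex and 0.0145 to 0.0777 in hippocampus. A member with a handful of reads therefore carries a large counting error in addition to the spread between mice. Mouse numbers in the titles fall into runs, called series A, B and C here, whose meaning the labels do not give. All mice with RSD alone belong to series A, those with RSD and minocycline to B and C, and controls to A and B. Libraries of 5 mice stood apart from their labels. AA control 5844 and AA + RSD + minocycline 5853 carried the erythroid transcript Alas2 at an SS-like level (95.9 and 51.9 CPM in cortex, 55.5 and 46.2 CPM in hippocampus), SS + RSD + minocycline 7078 carried it at an AA-like level (6.47 and 3.47 CPM), AA control 9631 carried the mouse globin transcript Hbb-bs, and the cortex and hippocampus libraries of AA + RSD 9674 had each other's region markers. Cortex and hippocampus libraries of SS + minocycline 9887 were identical to those of AA + RSD + minocycline 9877, so both mice were left out.

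All 8 members were thinly transcribed. Divided by the length of their exons, the mean levels in the cortex of AA mice ran from 0.137 CPM per kilobase for S100a9, 0.0973 for S100a8 and 0.0573 for Lcn2 down to 0.0117 for Ngp and 0.00576 for Elane. In SS cortex the order of the first 4 genes was the same, with 0.525 ± 0.566 CPM per kilobase for S100a9, 0.394 ± 0.310 for S100a8 and 0.310 ± 0.390 for Lcn2 (SD, n = 32), then 0.0728 for Ngp. The leading 3 genes overlapped within 1 SD, so their order among themselves does not exceed the spread between mice. In hippocampus S100a9 led again (0.0929 in AA and 0.372 in SS mice), followed by Lcn2 (0.0793 and 0.369) and S100a8 (0.0542 and 0.226). Mpo came next in AA hippocampus at 0.0246 CPM per kilobase.

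**Figure D1:**
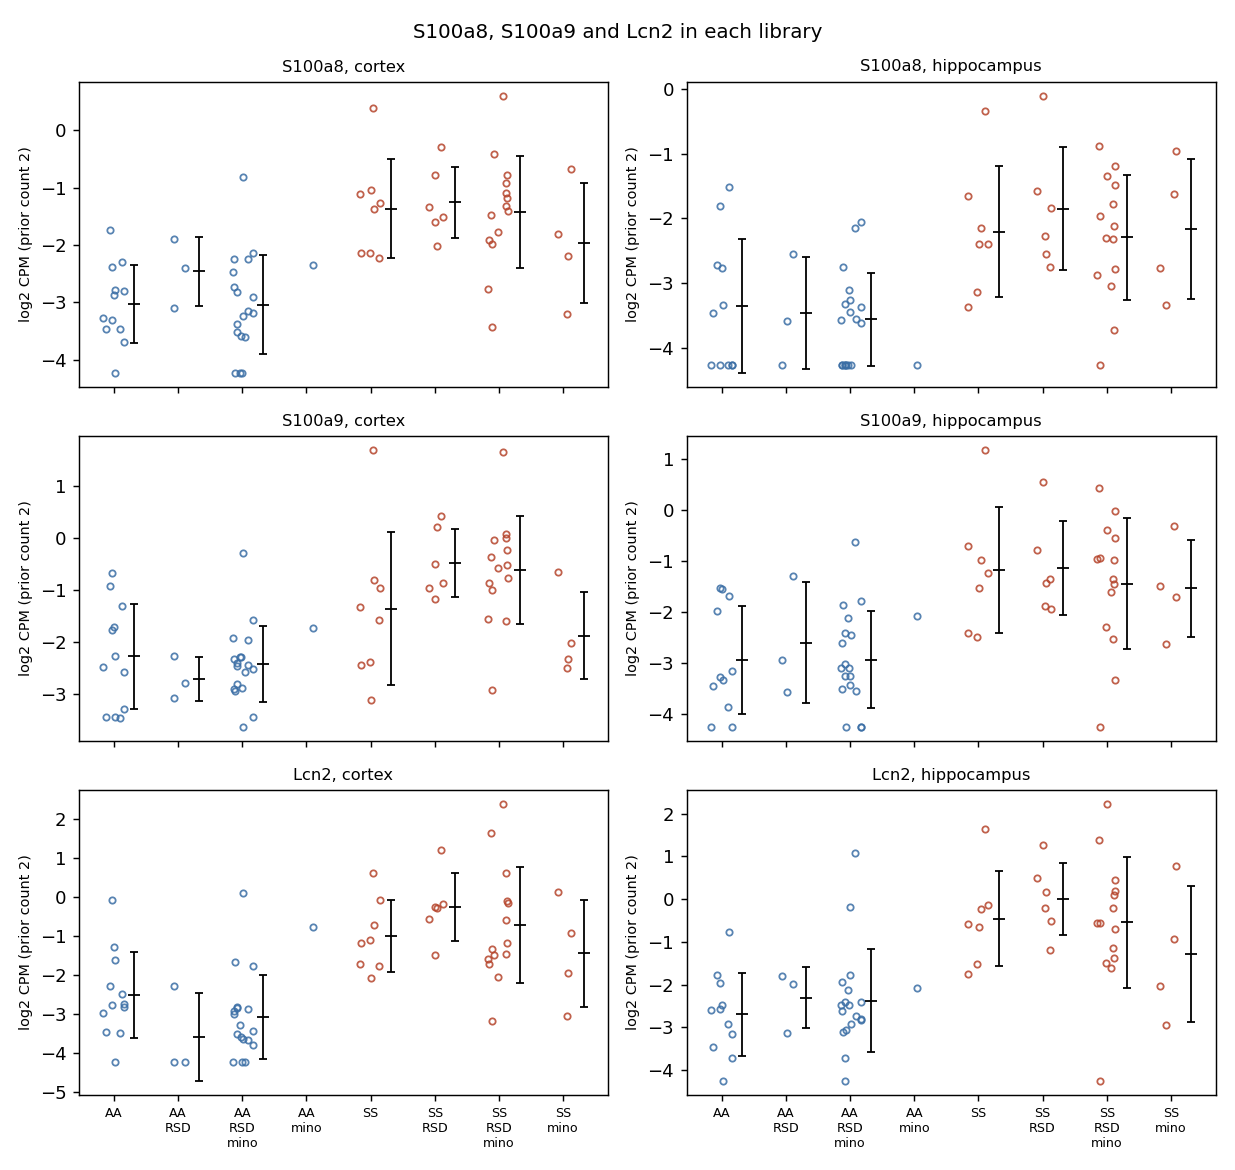
Levels of S100a8, S100a9 and Lcn2 as log2 CPM (prior count 2) in each library, cortex left and hippocampus right, by group, with 1 point per mouse (blue AA, red SS) and the mean and SD beside each group of more than 1. SS points lie mostly above AA points in the control, RSD and RSD + minocycline arms, with overlap in most panels, while the minocycline arm holds 1 AA mouse, and the single highest SS control in each panel is the same mouse.

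Calprotectin transcripts were higher in SS than in AA mice, a difference that passed the test over the arms in cortex and in the RSD + minocycline arm of both tissues. S100a8 in control cortex was at 0, 0.0669 and 0.248 CPM (lowest, median and highest of 12 AA mice) against 0.162, 0.349 and 1.25 CPM (8 SS mice). In 5 of the 8 SS controls S100a8 was above every AA control, while 11 of 12 AA controls were below every SS control. The groups thus overlapped through 1 AA library. With RSD, the 3 AA + RSD cortices had 0.0640, 0.137 and 0.216 CPM and the 6 SS + RSD cortices 0.193, 0.319 and 0.763 CPM. With RSD and minocycline S100a8 was at 0, 0.0581 and 0.512 CPM in 18 AA mice and at 0.0391, 0.335 and 1.45 CPM in 14 SS mice. In this larger arm the ranges overlapped widely, and 13 of 14 SS cortices were above the AA median.

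The hippocampus showed lower S100a8 levels with the same order. Control AA mice had 0, 0.0387 and 0.299 CPM (n = 11) and SS mice 0.0446, 0.138 and 0.739 CPM (n = 7). S100a8 had no read in 5 of the 11 AA controls and reads in all 7 SS controls. The 3 AA + RSD mice had 0, 0.0311 and 0.119 CPM, and the 6 SS + RSD mice 0.0971, 0.191 and 0.872 CPM, of which 5 were above all 3 AA + RSD mice. With RSD and minocycline the values were 0, 0.0324 and 0.187 CPM in AA and 0, 0.164 and 0.491 CPM in SS mice.

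S100a9 followed its partner. In control cortex it was at 0.0369, 0.140 and 0.576 CPM in AA and at 0.0614, 0.315 and 3.19 CPM in SS mice, and the groups overlapped over most of their range: a single SS mouse of 8 exceeded all AA mice. The 3 AA + RSD cortices, at 0.0640, 0.0910 and 0.154 CPM, were all below the 6 SS + RSD cortices, at 0.390, 0.575 and 1.29 CPM. With RSD and minocycline the AA cortices had 0.0267, 0.130 and 0.768 CPM and the SS cortices 0.0781, 0.631 and 3.12 CPM. This put 5 of 14 SS cortices above every AA cortex. In hippocampus S100a9 was at 0, 0.0509 and 0.291 CPM in AA and at 0.124, 0.368 and 2.19 CPM in SS controls, at 0.0311, 0.0777 and 0.356 CPM in AA + RSD and at 0.208, 0.329 and 1.41 CPM in SS + RSD mice, and at 0, 0.0638 and 0.592 CPM against 0, 0.395 and 1.29 CPM with RSD and minocycline. In the control hippocampus 5 of 7 SS values exceeded all AA values.

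Lcn2, the third abundant member, had the widest spread among SS mice. Control cortices had 0, 0.0965 and 0.906 CPM (AA) against 0.184, 0.401 and 1.49 CPM (SS). Of the 3 AA + RSD cortices 2 had no read and the third had 0.154 CPM, below all 6 SS + RSD cortices at 0.306, 0.779 and 2.27 CPM. With RSD and minocycline the AA cortices had 0, 0.0452 and 1.02 CPM and the SS cortices 0.0586, 0.368 and 5.17 CPM. The top SS value came from 146 reads in mouse 5801, and all 14 SS cortices were above the AA median. In hippocampus Lcn2 was at 0, 0.113 and 0.537 CPM in AA and 0.245, 0.612 and 3.07 CPM in SS controls, at 0.0623, 0.198 and 0.233 CPM in AA + RSD and 0.388, 0.941 and 2.35 CPM in SS + RSD mice, and at 0, 0.119 and 2.05 CPM against 0, 0.627 and 4.61 CPM with RSD and minocycline. All 6 SS + RSD hippocampi lay above the 3 AA + RSD hippocampi.

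**Figure D2:**
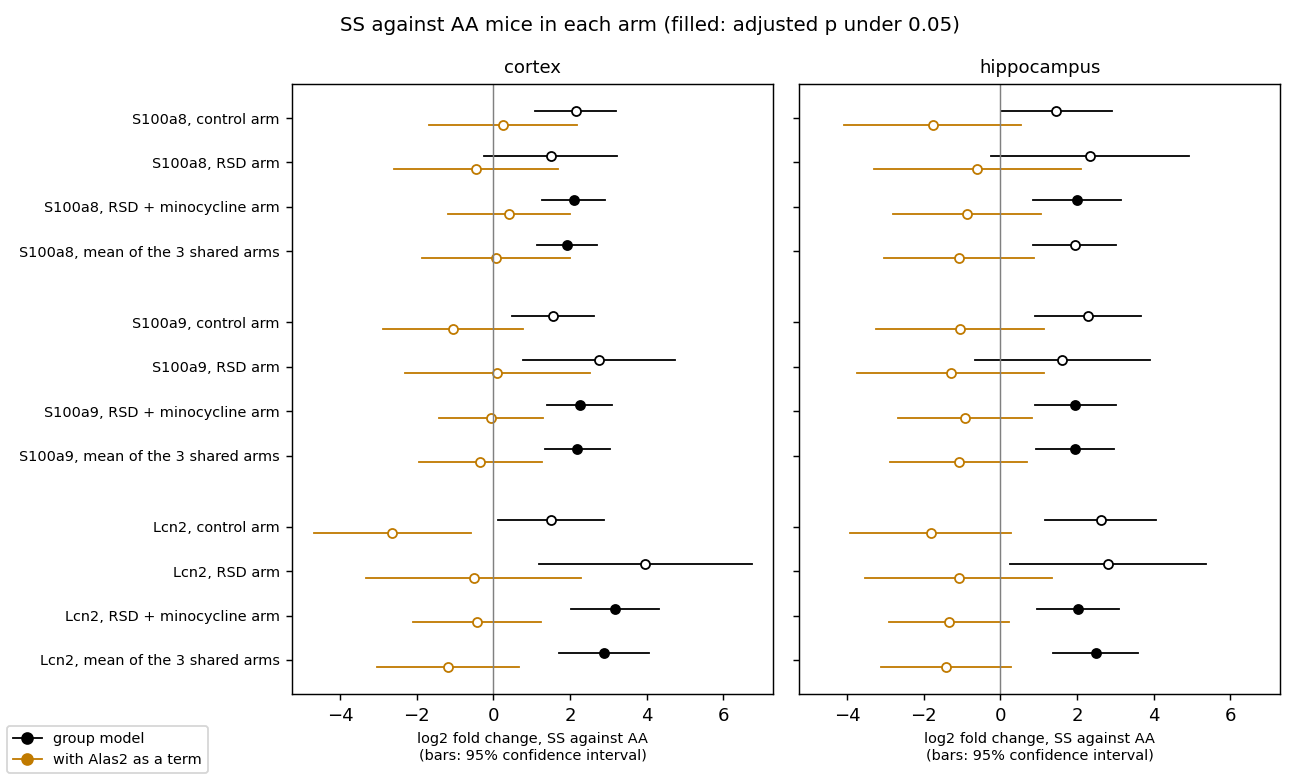
Log2 fold change of S100a8, S100a9 and Lcn2 in SS against AA mice by arm, cortex left and hippocampus right, from the model of groups (black) and with the Alas2 level as a further term (orange), with 95% confidence intervals as bars and filled points for an adjusted p under 0.05. All 3 genes are filled in the RSD + minocycline arm of both tissues in black, and no orange point is filled.

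The quasi-likelihood test of edgeR, with Benjamini-Hochberg adjustment over all genes, was applied to these differences. In cortex 6 of the 8 members passed the count filter (all but Mpo and Elane). The filter asked for the level that 10 reads give in the median library, 0.297 CPM, in at least 1 library. Ngp reached it in SS control 5349 and 1 SS + RSD + minocycline mouse and Camp and Ltf in SS control 5349 alone, while S100a8 reached it in 1 AA and 18 SS, S100a9 in 4 AA and 22 SS and Lcn2 in 4 AA and 23 SS cortices. Ngp, Camp and Ltf were thus tested only because of high SS libraries, and the counts of called members are given as an account, not as support. In the RSD + minocycline arm 3 members were higher in SS mice, where 0.606% of all genes tested were. Lcn2 was higher by 3.18 on the log2 scale (SE 0.57, adjusted p = 0.000477), S100a9 by 2.25 (SE 0.43, adjusted p = 0.00126) and S100a8 by 2.09 (SE 0.42, adjusted p = 0.00255). Averaged over the 3 arms that both genotypes share, 4 members were called higher, where 0.746% of all genes were. S100a9 was higher by 2.19 (SE 0.42, adjusted p = 0.00114), Lcn2 by 2.88 (SE 0.59, adjusted p = 0.00205) and S100a8 by 1.91 (SE 0.39, adjusted p = 0.00211). The other call was Ngp (adjusted p = 0.0461), which the filter had chosen through SS libraries, and it was lost without the libraries in doubt (adjusted p = 0.153), without the filter on low counts (0.0676) and in 14 of 23 fits that left out 1 mouse of the control or AA + RSD groups, with an adjusted p of 0.162 without SS control 5349. The calls of the other 3 members held in all 23 of those fits, and without AA + RSD mouse 9674 the difference of Lcn2 was 4.27.

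The control and RSD arms held fewer mice. In control cortex the test called 0 of 6 members, where 0.209% of all genes were called higher. 4 of the 6, Ngp among them, had an unadjusted p under 0.05, as had 1502 of all 22926 genes in either direction. DESeq2 called 1 member, S100a8. The difference was 2.14 for S100a8 (SE 0.53, adjusted p = 0.0660), 1.55 for S100a9 (SE 0.54, adjusted p = 0.517) and 1.496 for Lcn2 (SE 0.69, adjusted p = 0.745). Without the libraries in doubt S100a8 was called there, and leaving out AA control 9631 alone gave it an adjusted p of 0.0283. Without SS control 5349 the difference of S100a9 was 0.38, and that of Ngp fell from 3.18 to 1.45. In the RSD arm edgeR and DESeq2 called 0 of 6 in cortex, where 0.096% of all genes were called higher. An unadjusted p under 0.05 was found for 2 of the 6, and for 1111 of all 22926 genes in either direction.

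In hippocampus 5 members passed the filter (S100a8, S100a9, Lcn2, Ngp and Mpo), Ngp through SS control 5349 alone. In the RSD + minocycline arm edgeR called S100a8, S100a9 and Lcn2 higher in SS mice, where 2.62% of all genes were, and DESeq2 called 2, S100a9 and Lcn2. Lcn2 was higher by 2.03 (SE 0.54, adjusted p = 0.0202), S100a9 by 1.96 (SE 0.53, adjusted p = 0.0249) and S100a8 by 2.005 (SE 0.57, adjusted p = 0.0377). S100a8 kept its call in 5 of 10 alternatives, with an adjusted p of 0.0742 by DESeq2 and 0.0524 without the filter on low counts. Within series B alone no call was made there, with differences of 1.99 to 2.01. Averaged over the 3 arms, 2 members were called higher, where 0.465% of all genes were: Lcn2 by 2.49 (SE 0.56, adjusted p = 0.0121) and S100a9 by 1.96 (SE 0.51, adjusted p = 0.04999). The S100a9 call was lost in 15 of 21 fits that left out 1 mouse, with an adjusted p of 0.138 without SS control 5349, and that of Lcn2 without AA + RSD mouse 9643 (0.0578) or 9674 (0.0784). The difference of S100a8 was 1.93, not called by edgeR (adjusted p = 0.0874) and called by DESeq2 (0.0256). In the control hippocampus edgeR and DESeq2 called 0 of 5, where 0.155% of all genes were called higher. Lcn2 was higher there by 2.62 (SE 0.72, adjusted p = 0.223). An unadjusted p under 0.05 was found for 4 of the 5, Ngp among them, and for 862 of all 23215 genes in either direction. In the RSD arm both tools called 0 of 5, where 0.138% of all genes were called higher. Lcn2 and Mpo had an unadjusted p under 0.05 there, as had 2089 of 23215 genes in either direction. The 3 AA + RSD hippocampi had no Mpo read, so that p-value is not read as a difference.

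Control mice came from series A and B, and a difference between the series was not tested. In series B the cortices of 6 SS and 8 AA controls had 0.280 ± 0.126 against 0.0519 ± 0.0337 CPM of S100a8 (SD), 0.246 ± 0.171 against 0.100 ± 0.0763 CPM of S100a9 and 0.340 ± 0.139 against 0.122 ± 0.128 CPM of Lcn2. In series A the 4 AA controls had means of 0.146 CPM of S100a8, 0.410 CPM of S100a9 and 0.320 CPM of Lcn2. The 2 SS controls were 5349, with 1.25, 3.19 and 1.49 CPM, and 5353, with 0.363, 0.460 and 0.897 CPM. The series A level of S100a9 in SS mice thus rests on mouse 5349, since 5353, at 0.460 CPM, was close to the AA mean. Fitted within series B, the control cortex differences were 2.25 for S100a8 (adjusted p = 0.0630), 1.21 for S100a9 (0.609) and 1.36 for Lcn2 (0.812), and those with RSD and minocycline were 2.08, 2.30 and 3.17, all 3 called. The share of all genes called within series B is not given, so these 3 calls are an account. Series A was not tested alone.

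The specific granule genes were at the edge of detection. Ngp had 0 to 3 reads in the 12 AA control cortices and 0 to 27 in the 8 SS ones. The value of 27 reads, or 1.35 CPM, was that of SS control 5349, and the median SS cortex had 1 read, as had the median AA cortex. With RSD and minocycline Ngp had a median of 0 reads in AA and 1.5 in SS cortices, with up to 14. Camp had no read in 8 of 12 AA and 6 of 8 SS control cortices, and its 8 reads in mouse 5349 (0.399 CPM) were the most in any cortex. Ltf had 0 to 4 reads in AA and 0 to 15 in SS control cortices, the 15 again from mouse 5349 (0.747 CPM). In hippocampus Ngp had 0 to 5 reads in 11 AA and 0 to 18 in 7 SS controls, and 1 to 3 in each of the 3 AA + RSD mice. The Ngp, Camp and Ltf values of the SS control cortices thus rest largely on 1 mouse.

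Mpo and Elane belong to the primary granules. Mpo had 0 to 3 reads in AA and SS control cortices alike and did not pass the filter there. In hippocampus it reached 0 to 10 reads in AA (0.102 ± 0.0847 CPM, SD, n = 11) and 1 to 7 in SS controls (0.0863 ± 0.0506 CPM, n = 7), and the SS groups and the AA groups with reads ranged over much the same values. The 3 AA + RSD hippocampi had no Mpo read, which allows up to 0.0427 CPM over the group, against 0.0983 ± 0.0884 CPM in 6 SS + RSD mice (SD), 1 of which had none either. No fold is given for a group without reads. Elane never exceeded 1 read in any library: it was at 0 in all 11 AA, 7 SS and 6 SS + RSD hippocampi (limits of 0.00704, 0.00799 and 0.0145 CPM over the group). A difference in Elane was not detectable at this depth.

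**Figure D3:**
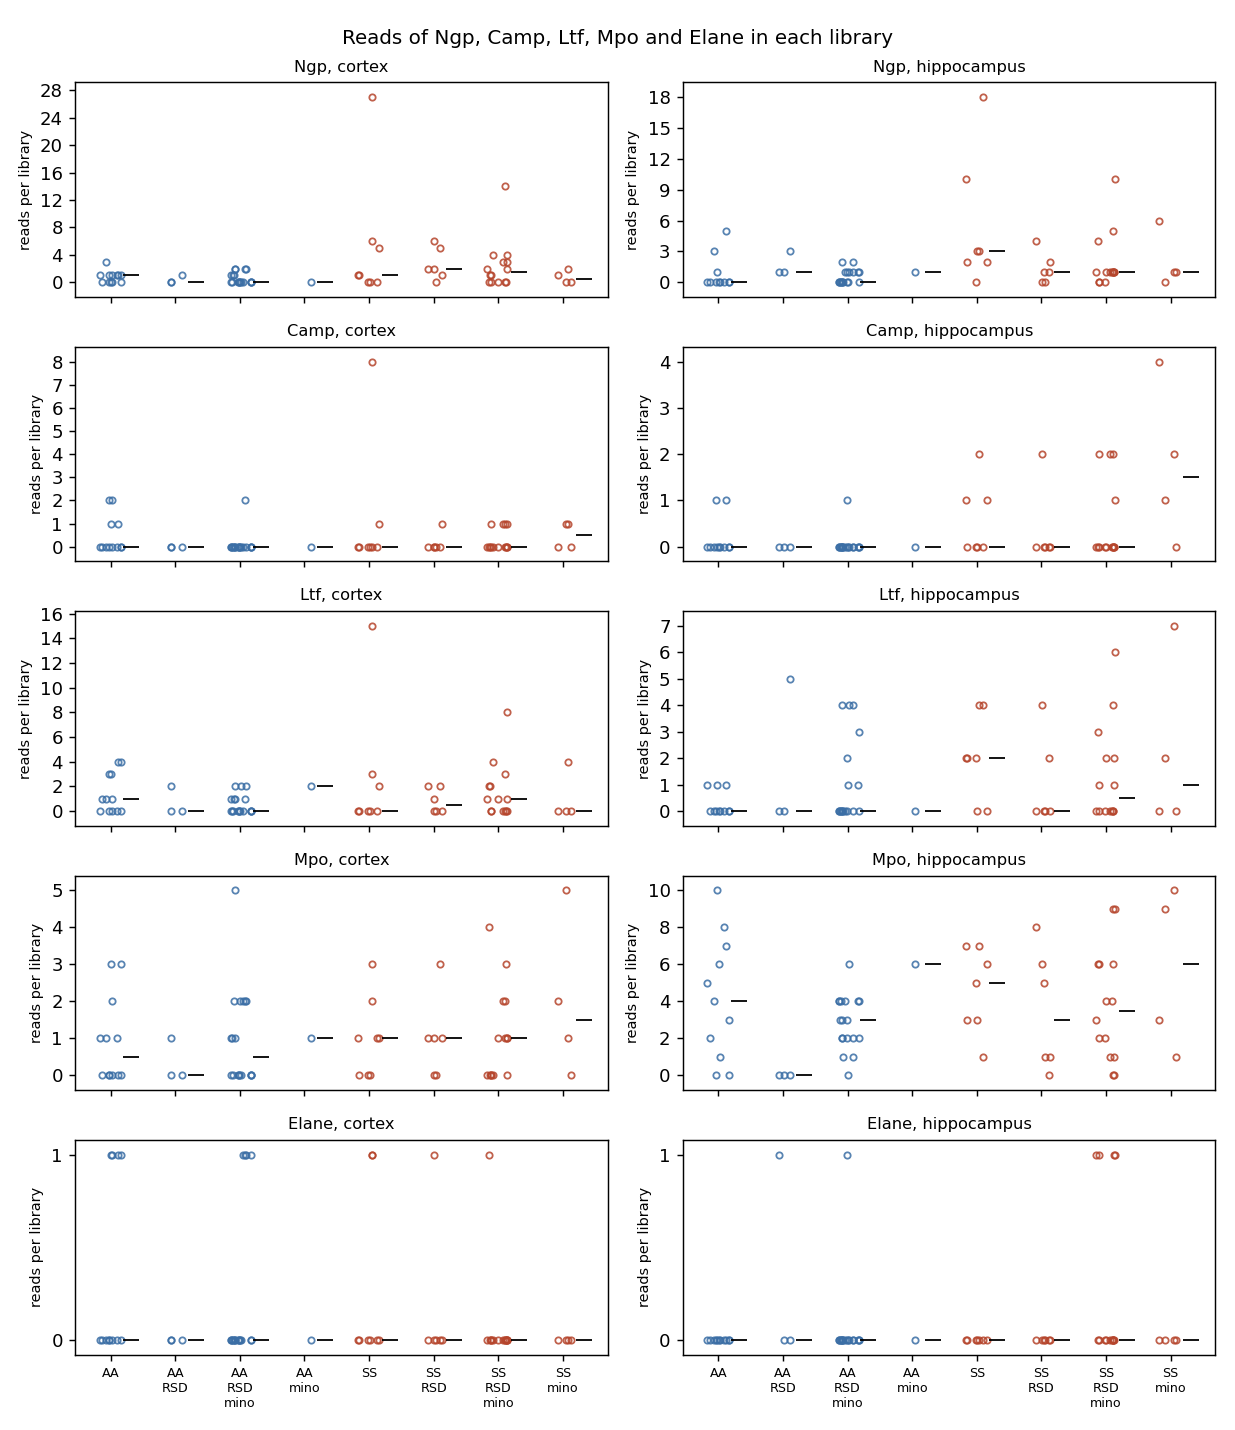
Reads of Ngp, Camp, Ltf, Mpo and Elane in each library by group, cortex left and hippocampus right, with a tick at each group's median. Most points lie at 0 to 5 reads, and the highest SS control points of Ngp, Camp and Ltf in cortex belong to 1 mouse.

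Alas2, the heme-synthesis enzyme of developing red cells, is abundant in reticulocytes, which circulate in large numbers in SS mice. It served as a sign of blood in the tissue and nearly separated the genotypes. Between genotypes it does not tell the amount of blood from the share of reticulocytes in it. In control cortex 11 of 12 AA mice were below every SS mouse, and with RSD all 6 SS mice were above all 3 AA mice. The summed level of 7 erythroid genes had a median of 4.86 CPM (2.99 to 108.7) in AA and 118.2 CPM (60.4 to 140.4) in SS control cortex. 5 of the 6 erythroid genes tested were called higher in SS control cortex, and 4 of 6 in control hippocampus, where their summed level had a median of 4.19 CPM in AA and 95.4 CPM in SS mice. When the Alas2 level was added to the model, edgeR called 0 members in any of the 8 comparisons of SS with AA mice, and several differences turned negative. Of those 44 values 2 had an unadjusted p under 0.05, and DESeq2 was not run with that term. In cortex S100a9 then differed by -1.07 in the control arm, -0.066 with RSD and minocycline and -0.34 over the arms, and Lcn2 by -2.63, -0.43 and -1.19. In hippocampus the values of S100a8, S100a9 and Lcn2 were -1.77, -1.05 and -1.82 in the control arm and -1.08, -1.09 and -1.41 over the arms. Apart from mice 5844, 5853 and 7078, AA and SS mice shared no Alas2 level, so genotype and Alas2 level cannot be told apart in these comparisons. The AA control 5844, with SS-like Alas2, had 0.0835 CPM of S100a8, 0.250 CPM of S100a9 and 0.362 CPM of Lcn2 in cortex, within the range of the other AA controls, and 0.0953, 0.286 and 0.127 CPM in hippocampus. The AA + RSD + minocycline mouse 5853 had 0.0808, 0.121 and 0.242 CPM in cortex and 0.0518, 0.0518 and 0.828 CPM in hippocampus, where its Lcn2 level was above the AA median of 0.119 CPM. The SS + RSD + minocycline mouse 7078, with AA-like Alas2, had 0.0391, 0.0781 and 0.0586 CPM, the lowest value of its group for each gene, and no read of any of the 3 in hippocampus. In bulk tissue more neutrophils and more RNA per neutrophil cannot be told apart either.

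Within a genotype the members were also set against Alas2. These fits include the mice with Alas2 levels unlike their label, 7078 among the SS mice and 5844 and 5853 among the AA mice, which lie at the ends of the Alas2 range. In hippocampus of 31 SS mice, with group means removed, all 3 members that passed the filter rose with Alas2, where 1.40% of all genes did. S100a8 rose by 1.38 on the log2 scale per doubling of Alas2 (SE 0.28, adjusted p = 0.0164), S100a9 by 1.34 (SE 0.29, adjusted p = 0.0213) and Lcn2 by 1.44 (SE 0.34, adjusted p = 0.0331). Without the libraries in doubt the slopes were 1.36, 1.25 and 1.27 and all called. With the number series in the model they were 1.08 to 1.27 and no longer called, and without the filter on low counts that of Lcn2 was not called either (adjusted p = 0.0534). In SS cortex the slopes were 0.98 to 1.23 and 0 of 3 were called by edgeR, where 0.201% of all genes were. All 3 had an unadjusted p under 0.05, as had 4163 of 19905 genes in either direction. Without the libraries in doubt S100a9 was called there with a slope of 1.42 (adjusted p = 0.0342). In AA mice 0 of 3 in cortex (2 at an unadjusted p under 0.05) and 0 of 2 in hippocampus (2) were called, where 0.105% and 0.0788% of all genes were. An unadjusted p under 0.05 was also found for 3053 of 21926 genes in cortex and 3767 of 21562 in hippocampus, in either direction. Without the AA libraries in doubt, which include those of highest Alas2, the AA slopes were called for 3 of 3 in cortex (0.86 for S100a8, 1.25 for S100a9 and 1.80 for Lcn2) and for 2 of 2 in hippocampus (1.14 for S100a9 and 1.56 for Lcn2). The shares of all genes above are from the fits with every library. Those without the libraries in doubt are not given, so the calls of these fits are an account.

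Correlations of log2 CPM with Alas2 across all libraries of a genotype gave a similar picture. They number 50 relations, tested by permutation. In SS hippocampus Pearson's r was 0.575 for S100a8 (adjusted p = 0.00238), 0.564 for S100a9 (0.00670) and 0.577 for Lcn2 (0.00886). Without the 2 libraries farthest from the median Alas2 level the values were 0.464, 0.302 and 0.381. Without the libraries in doubt they were 0.461, 0.342 and 0.306. Within series A alone (8 mice, exact permutation test) r was 0.882 for S100a8, 0.828 for S100a9 and 0.804 for Lcn2, and without its 2 farthest libraries 0.661, 0.127 and 0.284, so the series A values of S100a9 and Lcn2 rest on those libraries. Within series B mice with RSD and minocycline (n = 12) r was 0.433, 0.4662 and 0.365. In SS cortex r was 0.479 for S100a8 (adjusted p = 0.0261), 0.381 for S100a9 (0.0901) and 0.431 for Lcn2 (0.0571), with 0.335, 0.231 and 0.241 without the 2 farthest libraries. In AA cortex Lcn2 had an r of 0.618 (adjusted p = 0.00238), 0.660 without the 2 farthest libraries and 0.707 without those in doubt.

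**Figure D4:**
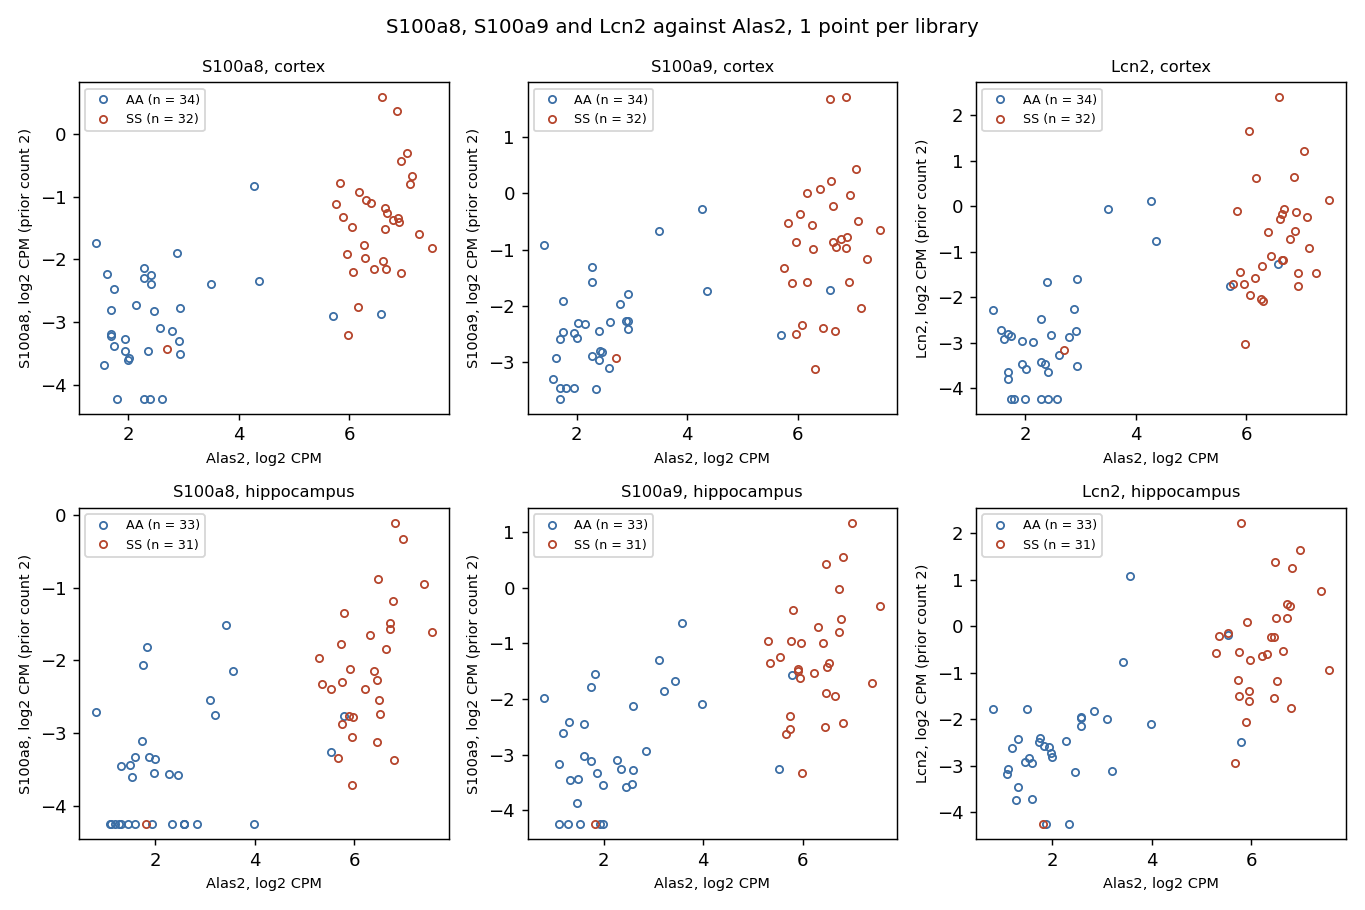
Log2 CPM (prior count 2) of S100a8, S100a9 and Lcn2 against log2 CPM of Alas2, 1 point per library, cortex and hippocampus, AA in blue and SS in red. AA and SS points form separate clouds along the Alas2 axis apart from the few libraries that stand apart from their labels, and within the SS hippocampus cloud the members rise with Alas2.

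No member passed the threshold for RSD or minocycline within a genotype. In SS + RSD against SS mice edgeR and DESeq2 called 0 of 3 members in cortex, where 2.57% of all genes were called in either direction, and none of the 3 had an unadjusted p under 0.05. The difference was 0.09 for S100a8 (95% confidence interval -1.07 to 1.25), 0.28 for S100a9 (-1.08 to 1.64) and 0.84 for Lcn2 (-0.67 to 2.35). In hippocampus, where 3.11% of all genes were called in either direction, it was 0.48 for S100a8 (-0.97 to 1.92), -0.17 for S100a9 (-1.66 to 1.32) and 0.32 for Lcn2 (-1.25 to 1.89), again with 0 of 3 called by both tools and none at an unadjusted p under 0.05. These intervals leave room for changes of more than 1 on the log2 scale in either direction for most members. All 6 SS + RSD mice were of series A and most SS controls of series B, so series and RSD overlap in part. The 2 series A control cortices had means of 0.805 CPM of S100a8, 1.82 CPM of S100a9 and 1.20 CPM of Lcn2, against 0.400 ± 0.209, 0.732 ± 0.376 and 0.933 ± 0.681 CPM in SS + RSD cortex (SD). Adding the number series to the model turned the cortex differences to -0.92 (-2.41 to 0.57), -1.26 (-2.81 to 0.28) and -0.31 (-2.41 to 1.78), and those of the hippocampus were -0.61, -1.38 and -0.79, none called. Without SS control 5349 the cortex differences were instead 0.52 for S100a8 (-0.61 to 1.66), 1.40 for S100a9 (0.22 to 2.58, adjusted p = 0.117) and 1.17 for Lcn2 (-0.40 to 2.73), and those of the hippocampus 1.18, 0.73 and 1.05, again none called. The sign of these values thus changed with the way series A was treated. For minocycline in stressed SS mice (SS + RSD + minocycline vs. SS + RSD) the differences in cortex were -0.08 for S100a8 (-1.11 to 0.96), -0.00 for S100a9 (-1.22 to 1.22) and 0.02 for Lcn2 (-1.33 to 1.37), where 8.85% of all genes were called in either direction. In hippocampus, where 5.96% were, they were -0.59 (-1.85 to 0.67), -0.16 (-1.47 to 1.15) and -0.11 (-1.49 to 1.26). Both tools called 0 of 3 in each, and none had an unadjusted p under 0.05. Series and treatment coincide in this contrast, since RSD mice were of series A and RSD + minocycline mice of B and C, so they cannot be told apart.

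Minocycline without RSD was set against SS controls, a comparison that holds SS control 5349. The 4 SS + minocycline cortices had 0.124, 0.144, 0.192 and 0.579 CPM of S100a9, against 3.19 CPM in mouse 5349 and 0.0614 to 0.519 CPM in the other 7 SS controls, and the difference was -1.28 (-2.97 to 0.42). That of S100a8 was -0.68 (-2.08 to 0.73) and that of Lcn2 -0.30 (-2.10 to 1.51). Without mouse 5349 the cortex differences were -0.09 for S100a9 (-1.46 to 1.29), -0.19 for S100a8 (-1.52 to 1.13) and 0.11 for Lcn2 (-1.71 to 1.94). Within series B the signs were reversed, with 0.66, 0.80 and 1.33 for S100a8, S100a9 and Lcn2, so no direction is read from these values. edgeR and DESeq2 called 0 of 3 members in each tissue, none had an unadjusted p under 0.05, and 0% of all genes were called in either direction. In AA mice, RSD and minocycline during RSD also left 0 of 3 members in cortex and 0 of 2 in hippocampus called by both tools, none at an unadjusted p under 0.05, where 0.853% and 3.6% of all genes in cortex and 1.19% and 2.67% in hippocampus were called in either direction. AA + RSD held 3 mice, 1 of them with region markers of the other tissue.

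Cortex and hippocampus of the same mouse had related levels of S100a8, S100a9 and Lcn2. Over 31 SS mice r between the tissues was 0.674 for S100a8, 0.639 for S100a9 and 0.830 for Lcn2, against 0.967 for Alas2. Over 33 AA mice it was 0.506, 0.663 and 0.565, against 0.949 for Alas2. For the sparse members no r between the tissues passed the threshold in SS mice. It was -0.0203 for Camp, -0.0201 for Mpo and -0.129 for Elane (adjusted p = 0.923, 0.923 and 0.862), 0.344 for Ltf and 0.350 for Ngp (adjusted p = 0.121 for both). With so few reads this is not read as the absence of a relation. S100a8 was higher in cortex than in hippocampus in 25 of 31 SS and 22 of 33 AA mice, and S100a9 in 23 of 31 and 24 of 33. Lcn2 went the other way, with the hippocampus higher in 20 of 31 SS and 22 of 33 AA mice. Mpo was higher in hippocampus in 25 of 31 SS mice (mean 0.0981 against 0.0326 CPM) and 26 of 33 AA mice (0.0842 against 0.0240 CPM).

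Of 7 members that passed the filter, edgeR called S100a8 between the tissues, where 35.2% of all genes were called in either direction. The fits of Mpo (SE 85.2) and Camp (SE 19.963) had standard errors too large for any call. Mpo had no read in AA + RSD hippocampi, and Camp none in AA + RSD or AA + minocycline libraries of either tissue. These standard errors are therefore not read as a spread between mice. The count of 1 in 7 is therefore not read against that background. S100a8 was higher in cortex by 1.29 on the log2 scale (SE 0.46, adjusted p = 0.0184). With the mouse as a replicate block, since both tissues came from the same animal, the difference was 1.37 (SE 0.30, adjusted p = 9.2e-05). Without the single AA + minocycline mouse, whose hippocampus had no S100a8 read, it was 0.69 (adjusted p = 0.0554) and not called. With the block and without that mouse it was 0.79 (adjusted p = 0.000368), and Lcn2 was called too.

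**Figure D5:**
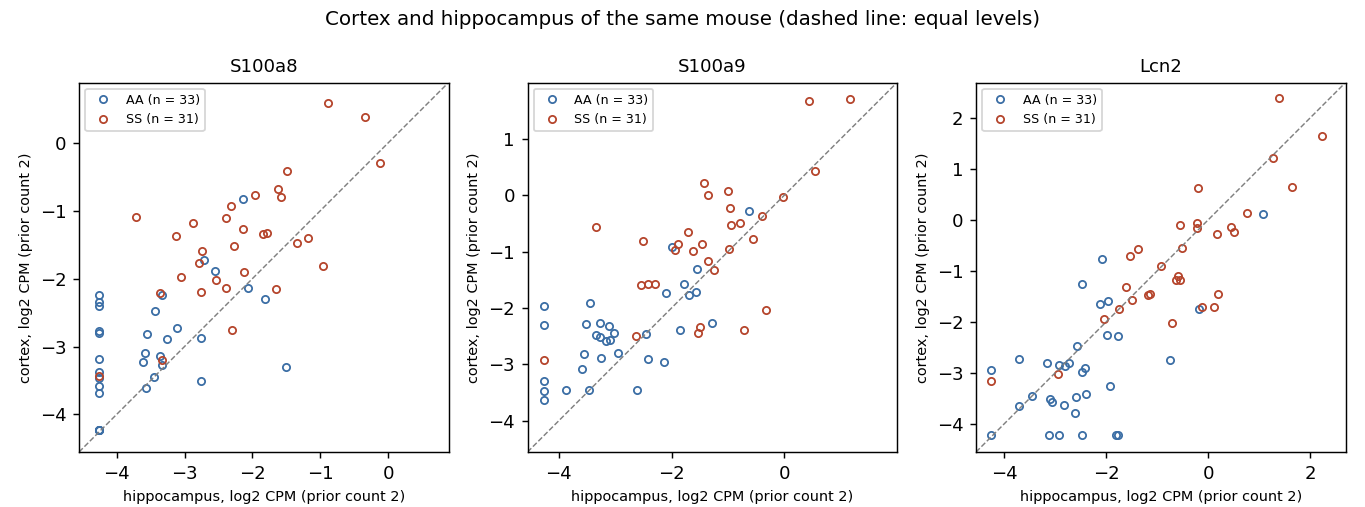
Level in cortex against level in hippocampus of the same mouse for S100a8, S100a9 and Lcn2, as log2 CPM (prior count 2), 1 point per mouse (AA blue, SS red), with a dashed line at equal levels. Most S100a8 and S100a9 points lie above the line and most Lcn2 points below it, in 25 of 31 and 20 of 31 SS mice for S100a8 and Lcn2.

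Of 24 further neutrophil genes, 23 had a single row and were used. In cortex 12 passed the filter and 0 were called between SS and AA mice by edgeR or DESeq2 in any of the 4 comparisons. An unadjusted p under 0.05 was found for 1, 0, 3 and 7 in the control, RSD and RSD + minocycline arms and over the arms. Among all 22926 genes the counts were 1502, 1111, 1893 and 2370, in either direction. The median difference of the 12 was 0.29 in the control arm, 0.56 with RSD and minocycline and 0.39 over the arms. Medians over all genes tested there were 0.01 or nearer to 0. Retnlg, Cxcr2 and Chil3 reached the level of the filter in SS cortices alone, so these medians are an account and not support. In hippocampus 11 passed, and 4 were called higher in SS mice with RSD and minocycline, where 2.62% of all genes were: Retnlg, a resistin-like secreted protein of neutrophils, by 2.04 (adjusted p = 0.0155), the chemokine receptor Cxcr2 by 2.14 (0.0231), the formyl peptide receptor Fpr2 by 1.497 (0.0422) and the chitinase-like Chil3 by 2.37 (0.0457). DESeq2 called 1 of these, Retnlg. Over the 3 arms Chil3 (2.89), Cxcr2 (2.31) and the NADPH oxidase subunit Cybb (0.82), which microglia also express, were called, 3 of 11 where 0.465% of all genes were, and DESeq2 called 2, Cxcr2 and Cybb. In hippocampus Retnlg and Chil3 reached the level of the filter in SS control 5349 alone and Cxcr2 in 5349 and 1 other SS mouse, so these calls are an account too. Their summed level ran from 7.47 to 12.7 CPM in AA and from 10.6 to 13.5 CPM in SS control cortices, most of it Csf3r, the receptor of the granulocyte growth factor, which was at 6.30 CPM in AA and 6.79 CPM in SS cortex on average. The sum thus mainly follows Csf3r and is not read as a level of neutrophils. Ly6g, the defining surface marker of mouse neutrophils, had no read in 57 of 66 cortex and 58 of 64 hippocampus libraries.

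Markers of other cells were read in the same fits. The 4 microglial genes showed no called difference between SS and AA control mice (median difference -0.06 in cortex and 0.01 in hippocampus, 0 of 4 called by edgeR or DESeq2 and 0 at an unadjusted p under 0.05). Of 5 monocyte genes both tools called 0 in the control arm, with 2 in cortex and 3 in hippocampus at an unadjusted p under 0.05 and median differences of 0.67 and 0.70. Over the 3 arms 4 of 5 had an unadjusted p under 0.05 in each tissue, edgeR called 0, and DESeq2 called 2 in cortex and 1 in hippocampus. Of 4 B cell genes, 3 were called higher in SS cortex over the 3 arms and 0 in hippocampus, where DESeq2 called 1 and all 4 had an unadjusted p under 0.05. In the RSD + minocycline arm 3 were called in cortex and 2 in hippocampus, while DESeq2 called 3 and 1. Of 4 T cell genes both tools called 1 in cortex in that arm, the receptor subunit Cd3e, named after its value was seen, and over the arms they called 0, with 2 at an unadjusted p under 0.05 in cortex and 4 of 5 in hippocampus. Of 5 platelet genes in cortex and 4 in hippocampus both tools called 0 in every comparison of SS with AA mice, with 0 to 3 at an unadjusted p under 0.05. Their summed level ran from 0.350 to 1.53 CPM in AA and from 0.921 to 2.15 CPM in SS control cortices. Of 7 genes of reactive endothelium and astrocytes, where Lcn2 is also known, both tools called 0 in the control arm of either tissue (1 in cortex and 3 in hippocampus at an unadjusted p under 0.05). With RSD and minocycline Lrg1, a secreted glycoprotein of activated endothelium, was higher in SS hippocampus by 0.85 (adjusted p = 0.0185), and 0 were called in cortex by either tool, with 4 at an unadjusted p under 0.05. Over the 3 arms both tools called 1 of 7 in each tissue, the protease inhibitor Serpina3n, lower in SS cortex, and the adhesion molecule Selp, higher in SS hippocampus, both named after their values were seen. Among all genes, 1502 of 22926 in control cortex and 862 of 23215 in control hippocampus had an unadjusted p under 0.05, in either direction. These counts were 1111 and 2089 with RSD, 1893 and 1936 with RSD and minocycline, and 2370 and 1783 over the arms. The part of these cells in the members' levels was not tested.

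The members varied together to different degrees among libraries once group means were removed, without clear sets. S100a8 and S100a9 had an r of 0.71 in cortex (n = 66) and 0.72 in hippocampus (n = 64), and Lcn2 followed S100a9 at 0.70 and 0.65. Against S100a9, Ngp had 0.51 in cortex and 0.53 in hippocampus, Ltf 0.45 and 0.49, and Camp 0.52 and 0.22. Ngp and Camp had 0.61 in cortex and 0.01 in hippocampus. Both were near 0 reads in each tissue, with no Camp read in 52 of 66 cortex and 50 of 64 hippocampus libraries. Against S100a8, Mpo had 0.17 and 0.26 and Elane 0.16 and -0.11. Among 21923 genes, the patterns closest to the mean of S100a8 and S100a9 were those of Ly6a, a surface antigen of vessels and leukocytes (mean r over tissues 0.61), Bpgm, a red cell enzyme (0.60), Lyz2, the lysozyme of myeloid cells (0.59), and the lysosomal protease Ctss (0.58), followed by Cpe, Fcgr3, Anxa2, Ly6c1, Ncl and Scg3. These correlations are across libraries that share depth and base composition and are given as a description.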

How the data were processed

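The samples were cortex and hippocampus of single mice. RNA was purified on columns, strand-specific libraries were made from polyadenylated RNA, and single reads were sequenced on an Illumina NextSeq. The authors used STAR and GRCm39, and the deposited values are raw read counts per GENCODE gene in 1 table for each tissue; tool versions and the release are not given in the sources used here, and perfusion before RNA extraction is not stated. Of 135 labelled samples, 1 whose labels conflict was unassigned, and 3 per-sample columns that match no such sample were not used. Each table has 4 summary lines that name no gene (medians of 12.4% and 13.3% of reads unmapped, 8.25% and 7.59% outside genes, in cortex and hippocampus), which stayed out of library sizes and tests. Multimapping reads were not counted on genes.

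The tests used edgeR 4.0.16 in R 4.3.3: filterByExpr by group (minimum count 10, total 15), TMM scaling and the quasi-likelihood test with Benjamini-Hochberg adjustment over all genes tested, called under 0.05. Genotypes were compared in a model of all groups of a tissue, treatments in a model of 1 genotype. The smallest group has 1 library, so 1 library could carry a gene through the filter. Levels are CPM of reads on genes, log2 values have a prior count of 2, and correlations were tested with 100000 permutations or exactly under 10 mice, two-sided. Both tissues came from the same mouse by its number; the r of Alas2 between tissues was 0.967 in SS and 0.949 in AA mice, so the fit blocked by mouse is given beside the tissue comparison. Alternatives were DESeq2 1.42.0 and its size factors, no filter, robust dispersion, number series, reads outside genes or Alas2 as a term, fewer groups, and leaving out mice. The scripts were tested on simulated data. Described by name are the members, Alas2, further neutrophil genes called together with a member, examples from marker lists, and the 10 genes most like S100a8 and S100a9. Members and lists were chosen with earlier results of these data known. The authors describe RSD in cages of several resident mice that met an intruder together. The labels do not name the cage of a mouse or say more about breeding and housing. Mice were therefore treated as independent, and a shared cage was not tested. The p-values measure the spread between these mice.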

Additional observations from a re-analysis of the deposited data

Results flagged for a closer look

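In some groups of 4 to 10 mice the highest library stood far from the others. Its gap to its nearest neighbour was large against the range of the group by Dixon's test. That test picks out about 1 in 20 groups by chance when values are normally distributed, which CPM of a few reads are not. Only the SS, SS + RSD and SS + minocycline groups were of that size, so no AA group was tested. A large gap was found in 14 of 34 groups tested, and 8 of the 14 came from 1 mouse, SS control 5349. Its cortex had 1.25 CPM of S100a8, 3.19 of S100a9, 1.35 of Ngp, 0.399 of Camp and 0.747 of Ltf, and its hippocampus 0.739 CPM of S100a8, 2.19 of S100a9 and 3.07 of Lcn2. The next highest SS control had 0.430 CPM of S100a8 and 0.519 CPM of S100a9 in cortex. SS + RSD mouse 9621 stood apart with 0.872 CPM of S100a8 and 1.41 CPM of S100a9 in hippocampus and 2.27 CPM of Lcn2 in cortex. Among the 4 SS + minocycline mice, 9889 had 0.579 CPM of S100a9 in cortex, 7121 had 0.0824 CPM of Ltf in cortex from 4 reads, and 9888 had 0.274 CPM of Ltf in hippocampus from 7 reads. In the AA + RSD + minocycline group, which was not tested, mouse 5898 had 1.02 CPM of Lcn2 in cortex and the next highest, 5646, had 0.263 CPM.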

How the results depend on the processing

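With Alas2 as a term, 0 members were called with RSD and minocycline and over the 3 arms, in cortex and in hippocampus. The differences that changed sign were then, in cortex, -1.07 (S100a9) and -2.63 (Lcn2) in the control arm, -0.066 and -0.43 with RSD and minocycline, and -0.34 and -1.19 over the arms. In hippocampus S100a8, S100a9 and Lcn2 differed by -1.77, -1.05 and -1.82 in the control arm, -0.87, -0.93 and -1.33 with RSD and minocycline, and -1.08, -1.09 and -1.41 over the arms. In control cortex 1 member was called with the number series as a term, without the libraries in doubt or by DESeq2, 3 with reads outside genes as a term, and 0 to 2 when 1 mouse was left out (2 without SS 9822, 1 without AA 9631). Reads outside genes as a term gave 1 call in the RSD arm of the cortex (S100a9) and 1 in control hippocampus (Ngp). In fits of only the groups compared 0 members were called with RSD and minocycline in both tissues, since the stricter filter of such a fit removed S100a8, S100a9 and Lcn2 in cortex and left Lcn2 in hippocampus. In hippocampus 0 were called there within series B. Over the arms of the hippocampus 1 was called with DESeq2's size factors, no filter, robust dispersions or only the groups compared, and 0 to 3 when 1 mouse was left out: 0 without AA + RSD 9643 or 9674, 3 without AA 9644, and 1 without SS 9822, 9824, 5785, 5349 or 5353, AA 9838, 5845, 9839, 9879, 5899, 5900 or 9836, or AA + RSD 9646. Slopes on Alas2 gave 1 call in SS cortex, 3 in AA cortex and 2 in AA hippocampus without the libraries in doubt, and 0 in SS hippocampus with the number series as a term. Between tissues 0 members were called without the single AA + minocycline mouse, and 2 with the replicate block as well. The block alone gave 1 call, as reported, and S100a8 kept its direction. Leaving out control mice over the arms and in the SS treatment comparisons, and the fits without the single AA + minocycline mouse, were chosen after seeing the data. The causes were not tested. Shares of all genes called are not given for these alternative fits, so the member counts in this section are an account. Depth limits Ngp, Camp, Ltf, Mpo and Elane, whose libraries mostly held 0 to 5 reads.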
